A study of Homo sapiens with 6 samples.

Results

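The DNAJ genes encode the J domain cochaperones, also called HSP40 proteins. They were followed here in AC16 cells given PA. Members were the rows whose gene name is DNAJA, DNAJB or DNAJC with a number, leaving out DNAJC3, pseudogenes, and antisense or divergent transcripts. This gave 42 of 29638 rows: 4 of class A, 11 of class B and 27 of class C. The rule used gene names alone.

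A J domain is a short helical segment that binds an HSP70 chaperone and stimulates its ATPase, so that HSP70 closes on an unfolded client protein. Class A proteins resemble bacterial DnaJ and carry a glycine and phenylalanine rich stretch and zinc fingers. Class B proteins lack the zinc fingers, and class C proteins share little beyond the J domain and are often tied to one place or task. In muscle cells these chaperones assist the folding and clearance of proteins under mechanical, oxidative and heat stress.

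The 6 libraries came from AC16, an established human line derived from human ventricular cardiomyocytes that were fused to fibroblasts transformed with SV40. There were 3 libraries from PA-treated cells and 3 from control cells given Ethanol, and all 6 are labelled WT. The treatment label reads Palmitelaidic Acid while the series title names palmitic acid, so the treatment is called PA, and the sources used here do not give its dose or time. The design implies a single comparison, the transcript levels after PA against those after the vehicle.

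Levels were given as RPKM, reads scaled to transcript length and to the reads of the library, whose sum over all rows was between 733025 and 881369 per library. Read depth is unknown, so no counting interval can be given. The labels do not say that replicate libraries came from separate cultures, so p-values measure the spread between these libraries, which may be technical. Cardiomyocyte markers were mostly near 0: of 10 cardiomyocyte markers in the files, TNNI3 alone averaged at least 1 RPKM, MYH6, NPPA and PLN were listed at 0 in all 3 PA libraries and TNNT2 in all 3 control libraries. The summed level of that list was 3.74 to 4.69 RPKM in PA and 1.24 to 3.23 RPKM in control. Of 8 fibroblast markers, 7 averaged at least 1 RPKM. Their summed level was 369 to 580 RPKM in PA and 611 to 710 RPKM in control, mostly COL1A1 and THY1. The difference was made mostly by COL1A1, with means of 139 RPKM in PA and 299 RPKM in control (limma adjusted p = 0.0510). THY1, FAP, COL3A1, PDGFRA and PDGFRB also had lower means in PA. COL1A2 (28.6 RPKM in PA, 25.1 RPKM in control) and DDR2 (31.8 RPKM in PA, 31.5 RPKM in control) did not. Endothelial markers summed to at most 1.17 RPKM in PA and 0.97 RPKM in control. Of 3 leukocyte markers PTPRC was at or below 0.03 RPKM in every library, and the list summed to 65.6 to 76.3 RPKM in PA and 43.3 to 54.7 RPKM in control, mostly CD68. Past the limma threshold were TNNI3 and CD14, higher in PA, and FAP and COL3A1, lower in PA. The part of these markers in the DNAJ values was not tested. AC16 is a single line and not a mixed tissue, and in bulk RNA fewer cells with a marker and less of its RNA per cell cannot be told apart.

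Of the 42 DNAJ genes, 37 averaged at least 1 RPKM over the 6 libraries, the level from which genes were tested. RPKM is scaled by length, so levels can be set side by side between genes, but only roughly. The gene models counted on are not stated, and relations to GC content and overlapping genes are described further on. The most abundant were DNAJB6, a suppressor of protein aggregation, at 213 ± 20.9 RPKM in PA and 205 ± 5.21 RPKM in control (SD, n = 3 per group), and DNAJA1, a general cytosolic cochaperone, at 156 ± 32.7 RPKM in PA and 205 ± 11.9 RPKM in control. DNAJC8, a spliceosome-associated member, followed at 122 ± 20.9 RPKM in PA and 122 ± 4.58 RPKM in control. DNAJB1, the canonical HSP40, was at 71.3 ± 2.67 RPKM in PA and 78.4 ± 5.47 RPKM in control. The summed RPKM of all 42 genes was 1325, 1317 and 1423 in PA 1, 2 and 3, against 1423, 1422 and 1439 in control 1, 2 and 3. PA 1 and PA 2 lay below every control, and PA 3 lay within the control range. These sums are as deposited and were not divided by the RPKM sum of the library. That sum was 881369 in PA 3, above the 733025 to 808623 of the controls.

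The 5 genes below the tested level were DNAJC27, DNAJC5G, DNAJB7, DNAJB13 and DNAJC5B. DNAJC27, a Rab-like GTPase with a J domain, missed it narrowly, with 1.60, 0.73 and 0.89 RPKM in PA and 1.13, 0.73 and 0.90 RPKM in control. PA 1 was thus the high library, and in the same library the overlapping antisense transcript DNAJC27-AS1 was at 3.14 RPKM, where the other 5 libraries were at or below 0.10 RPKM. DNAJB7 was at 0.12, 0.29 and 0.20 RPKM in PA and at 0.54, 0.44 and 0.36 RPKM in control, without overlap but untested. DNAJC5G was at 0.34, 0.63 and 0.42 RPKM in PA and at 0.41, 0.11 and 0.69 RPKM in control, the PA values lying within those of the controls. DNAJB13, a ciliary and flagellar member, reached at most 0.10 RPKM in PA and 0.20 RPKM in control, and DNAJC5B at most 0.04 RPKM in both.

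**Figure D1:**
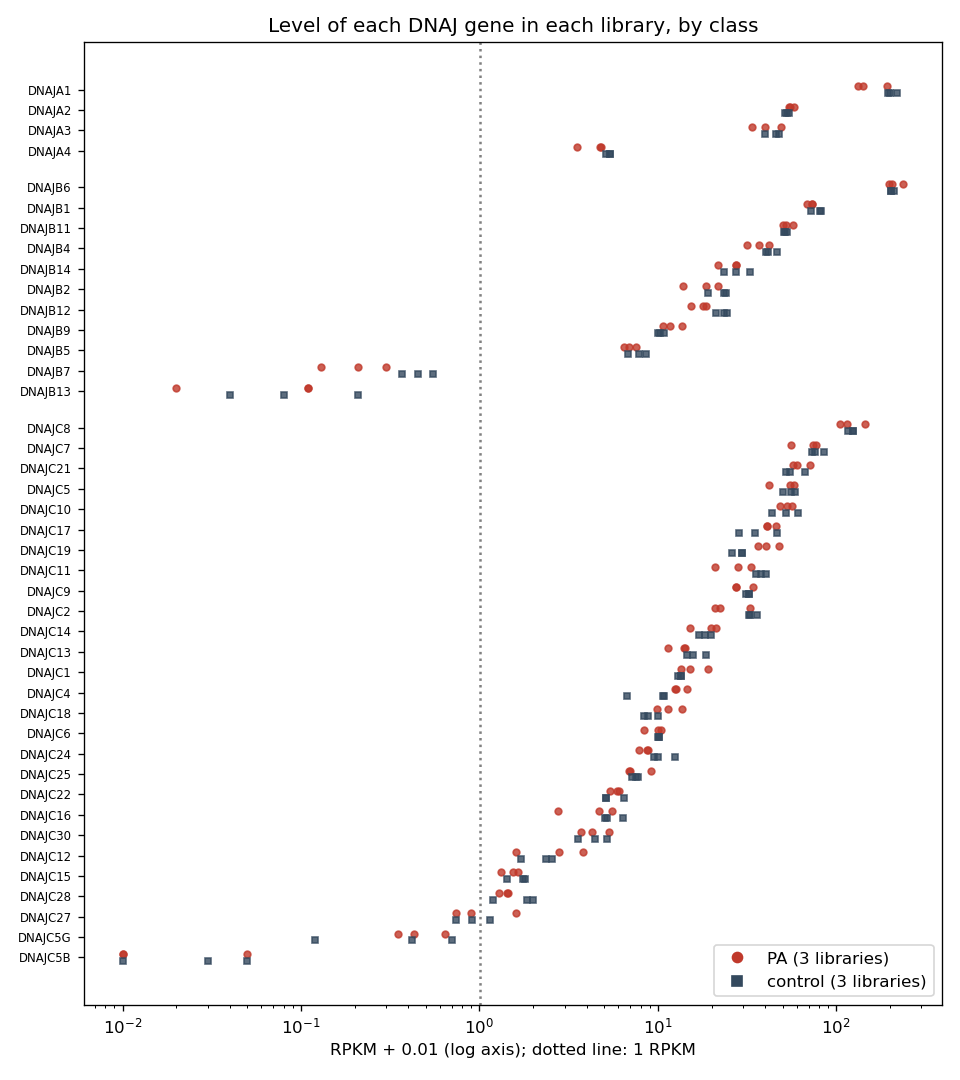
RPKM of each of the 42 DNAJ genes in the 3 PA libraries (red circles) and the 3 control libraries (dark squares), on a log axis after adding 0.01, grouped by class A, B and C from top to bottom. The levels run from DNAJB6 and DNAJA1 above 100 RPKM to 5 genes whose mean over the 6 libraries lies left of the dotted line at 1 RPKM (single libraries of DNAJC27 lie right of it), and for most genes the groups lie close together or overlap.

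No DNAJ gene passed the test. Of the 37 tested, 0 were higher and 0 lower in PA at an adjusted p under 0.05 in limma, a linear model fitted over all 14159 genes tested with Benjamini-Hochberg adjustment, and 4.81% of all genes tested passed. At an unadjusted p under 0.05 in the same limma fit there were 7 DNAJ genes, 18.9%, against 25.9% of all genes: DNAJC19, DNAJC4 and DNAJC18 with positive values (3 of 37, against 13.5% of all genes) and DNAJC11, DNAJC2, DNAJA1 and DNAJB12 with negative ones (4 of 37, against 12.4%). In 9 DNAJ genes the PA and control libraries did not overlap, as in 32.6% of all genes, with 3 higher (DNAJC19, DNAJC4 and DNAJA2, against 16.7% of all genes) and 6 lower (DNAJA1, DNAJA4, DNAJB12, DNAJC11, DNAJC13 and DNAJC24, against 15.9%). The log2 fold changes of PA over control, on log2(RPKM + 1), ran from -0.47 (DNAJC11) to 0.52 (DNAJC19). They were within 0.25 of 0 for 26 of 37 DNAJ genes, 70.3%, and for 58.0% of all genes. The count was 1 higher with a filter at 5 RPKM (7.41% of all genes passed), with quantile normalization (6.04%) and with protein-coding genes alone (9.73%). It was 1 higher and 2 lower with a trend on length and GC content taken out (14.0%, or 17.0% with another set of transcript models). It stayed at 0 with pseudocounts of 0.1 and 0.5 (5.17% and 4.80%), without the filter on low values (0.243%), with values rescaled to a common sum (3.75%), without a variance trend (4.29%) and with the replicate number as a block (0.692%). Leaving out a library gave 0 without PA 1 (2.95%), PA 2 (0.163%), control 1 (0.106%), control 2 (1.14%) or control 3 (0.650%), and 2 lower without PA 3 (4.02%). A gene that misses the threshold is not shown to be unaffected, and the 95% intervals in the plot of fold changes give the sizes these libraries allow.

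**Figure D2:**
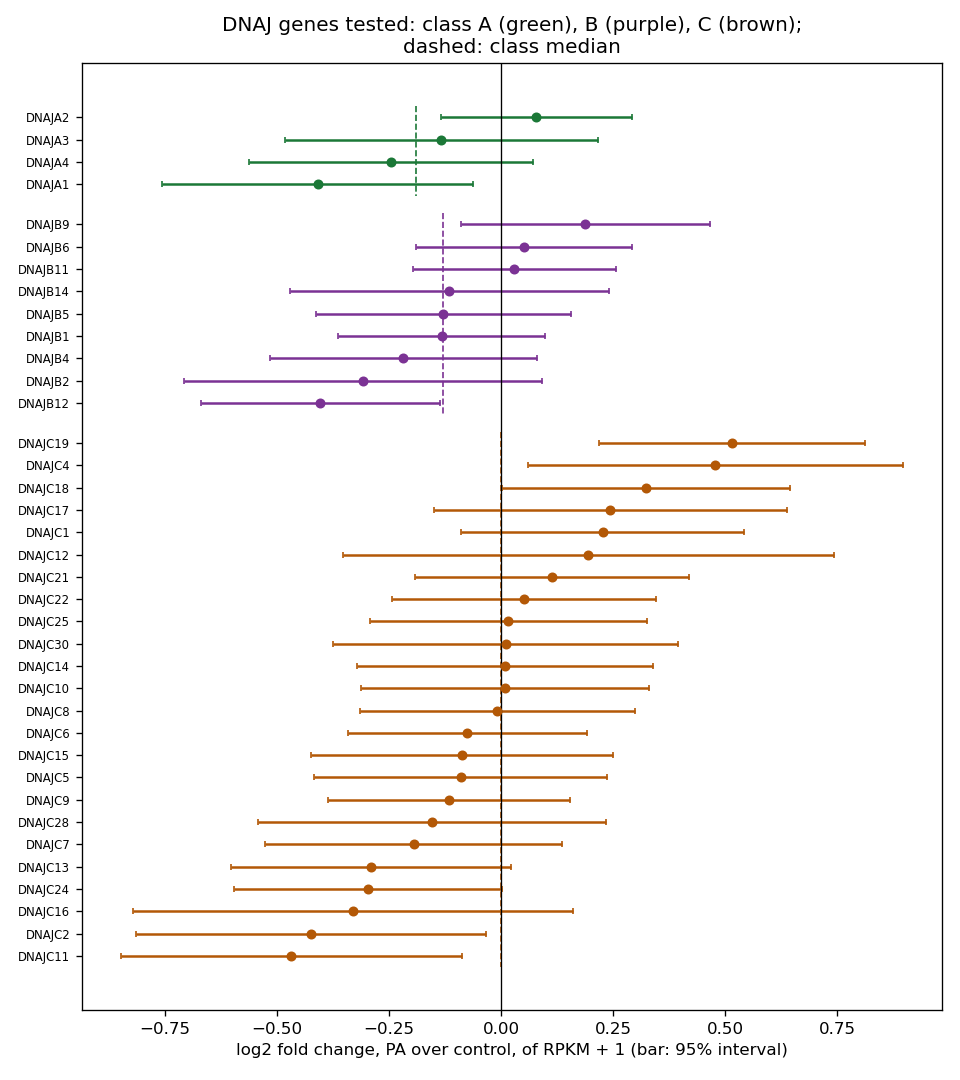
Log2 fold changes of PA over control on log2(RPKM + 1) for the 37 tested DNAJ genes, with 95% intervals from limma that are not adjusted for the number of genes; green is class A, purple class B and brown class C, and the dashed lines are class medians. The medians are -0.19 for class A, -0.13 for class B and 0.00038 for class C, and the members of each class lie on both sides of 0.

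The classes were described by their counts and medians, without a test, since the genes of a class are not replicates. Class A had 1 positive and 3 negative values with a median log2 fold change of -0.19, class B had 3 positive and 6 negative with a median of -0.13, and class C had 12 positive and 12 negative with a median of 0.00038. Over all genes tested the median was -0.019 and 52.5% of values were negative. The class A median rests on 4 genes and moved to -0.066 without PA 3 and to -0.29 without PA 1. With values rescaled to a common sum per library, the medians were -0.29, -0.22 and -0.11 for classes A, B and C (over the genes tested above), where that of all genes was -0.11. In summed RPKM, class A was at 241, 241 and 288 in PA 1, 2 and 3 and at 298, 298 and 325 in the controls, a difference made mostly by DNAJA1. Class B was at 476, 444 and 442 RPKM in PA and 480, 467 and 462 RPKM in control, and class C at 608, 632 and 693 RPKM in PA and 644, 657 and 652 RPKM in control. As deposited, the B and C groups overlap, and PA 3 is the highest library of class C. PA 3 also has the highest RPKM sum over all rows, and the class sums were not divided by it.

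Class A comprises 3 cytosolic cochaperones and 1 mitochondrial one. DNAJA1 had 133, 141 and 193 RPKM in PA 1, 2 and 3, against 196, 199.7 and 218 RPKM in control 1, 2 and 3. Every PA library was lower than every control, but PA 3 came within a few RPKM of the lowest control while PA 1 and PA 2 lay far below. The log2 fold change was -0.41 ± 0.15 (SE) with a limma adjusted p of 0.141. Without PA 3 it was -0.57 with a limma adjusted p of 0.0367, where 4.02% of all genes passed. With values rescaled to a common sum it was -0.52 (limma adjusted p = 0.0676), where 3.75% of all genes passed. Over all alternatives tried the limma adjusted p of DNAJA1 ran from 0.0367 to 0.347. DNAJA2, a cytosolic cochaperone in protein refolding, had 54.6, 55.0 and 57.7 RPKM in PA against 51.3, 52.7 and 54.3 RPKM in control. The groups did not overlap but the shift was small, a log2 fold change of 0.079 ± 0.092 (95% interval -0.13 to 0.29, limma adjusted p = 0.622), and its sign turned to -0.027 with values rescaled to a common sum. DNAJA4, a heat-inducible cytosolic member, was at 4.77, 4.76 and 3.50 RPKM in PA and 5.13, 5.40 and 5.36 RPKM in control, lower in every PA library (limma adjusted p = 0.295). DNAJA3, also called TID1, acts in the mitochondrial matrix, and its values overlapped, with 33.6 to 49.0 RPKM in PA and 39.9 to 47.5 RPKM in control.

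Heat shock elements, the sites of the heat shock factor HSF1, are inverted repeats of the unit GAA, and several cytosolic DNAJ genes are known heat shock genes. Promoter windows from RefSeq, 250 bases before to 50 after each gene start, were therefore searched for GAANNTTC and TTCNNGAA, each of which is its own reverse complement. Of the 42 DNAJ genes, 38 matched the table by symbol, with 50 windows. At least 1 window held a match in 8 of these genes, 21.1%: DNAJA1, DNAJA4, DNAJB1, DNAJB4, DNAJB6, DNAJB7, DNAJC6 and DNAJC15. The share was 16.2% over all 27305 genes with windows, tested here or not. Among tested genes alone it was 20.6% for DNAJ genes and 13.5% over all. By window, 9 of 50 DNAJ windows held a match, or 18.0%, against 13.5% of all 35116 windows. Among windows of tested genes the shares were 17.8% for DNAJ genes and 10.3% over all. The longer form of 3 units, GAANNTTCNNGAA or its reverse complement TTCNNGAANNTTC, contains overlapping shorter matches. It was in 2 of the 50 windows, those of DNAJA1 and DNAJB6, and in 0.490% of all windows. By gene this was 2 of 38, or 5.26%, against 0.608% of all genes with windows. Among tested genes alone it was 5.88% for DNAJ genes and 0.491% over all. Of the 7 tested genes with a shorter match 6 had negative log2 fold changes (median -0.13), against 14 of the other 27 that matched the table (median -0.0081); over all genes tested with a window the negative shares were 55.0% with a match (median -0.040) and 52.7% without (median -0.020). With the longer form it was 1 of 2 DNAJ genes, against 19 of the other 32. Over all genes tested with a window, 30 of 48 with the longer form were negative, 62.5% (median -0.14). Without it the share was 52.9% (median -0.022). A match is a description of letters and does not show binding. Shown are the windows of 4 DNAJ genes with a match and, for comparison, that of HSPA8, the constitutive HSP70 partner described further on, with matches in capitals; for DNAJA4 and DNAJB1, which have 3 starts each, it is the window with 2 matches.
DNAJA1 (GRCh38.p14, chr9:33025023-33025322, plus strand): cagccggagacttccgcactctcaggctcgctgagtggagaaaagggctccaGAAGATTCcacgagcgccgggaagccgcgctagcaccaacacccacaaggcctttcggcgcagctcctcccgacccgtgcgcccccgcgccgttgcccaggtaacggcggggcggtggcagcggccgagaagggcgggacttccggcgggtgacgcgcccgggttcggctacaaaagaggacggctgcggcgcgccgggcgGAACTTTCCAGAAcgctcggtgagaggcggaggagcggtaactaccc
DNAJA4 (GRCh38.p14, chr15:78264312-78264611, plus strand): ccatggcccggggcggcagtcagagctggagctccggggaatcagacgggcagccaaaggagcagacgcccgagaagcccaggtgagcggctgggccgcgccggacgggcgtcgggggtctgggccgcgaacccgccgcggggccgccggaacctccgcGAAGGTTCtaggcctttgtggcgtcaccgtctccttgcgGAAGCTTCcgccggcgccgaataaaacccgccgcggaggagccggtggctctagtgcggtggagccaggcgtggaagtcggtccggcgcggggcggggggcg
DNAJB1 (GRCh38.p14, chr19:14518348-14518647, minus strand): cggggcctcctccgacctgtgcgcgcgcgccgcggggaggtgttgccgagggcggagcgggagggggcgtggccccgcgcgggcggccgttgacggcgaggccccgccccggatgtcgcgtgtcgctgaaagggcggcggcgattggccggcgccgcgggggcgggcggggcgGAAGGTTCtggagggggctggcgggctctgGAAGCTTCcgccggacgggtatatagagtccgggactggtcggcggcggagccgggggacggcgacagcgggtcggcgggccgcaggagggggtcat
DNAJB6 (GRCh38.p14, chr7:157336754-157337053, plus strand): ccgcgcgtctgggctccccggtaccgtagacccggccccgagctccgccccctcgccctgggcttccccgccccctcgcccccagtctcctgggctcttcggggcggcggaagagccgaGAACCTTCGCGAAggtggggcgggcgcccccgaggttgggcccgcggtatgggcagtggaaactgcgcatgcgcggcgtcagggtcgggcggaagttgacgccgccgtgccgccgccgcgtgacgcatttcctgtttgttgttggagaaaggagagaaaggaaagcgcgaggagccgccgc
HSPA8 (GRCh38.p14, chr11:123062087-123062386, minus strand): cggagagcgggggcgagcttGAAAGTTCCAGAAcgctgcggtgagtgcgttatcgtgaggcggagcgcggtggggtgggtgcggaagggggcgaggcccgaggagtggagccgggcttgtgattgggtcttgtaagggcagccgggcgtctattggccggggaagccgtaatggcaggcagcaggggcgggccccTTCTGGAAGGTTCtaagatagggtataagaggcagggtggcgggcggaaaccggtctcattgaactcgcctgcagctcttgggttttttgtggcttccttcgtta
The windows of DNAJA4 and DNAJB1 hold the same pair of matches in the same order, beginning 91 and 52 bases before the start in DNAJA4 and 77 and 47 bases before it in DNAJB1. The longer form begins 131 bases before the start in DNAJB6 and just after it in DNAJA1, and HSPA8 holds it at 230 and at 55 bases before the start.

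The tested class B genes were listed as cytosolic or endoplasmic reticulum (ER) members. DNAJB1, which works with HSP70 and HSP110 in protein disaggregation, had 72.7, 73.0 and 68.2 RPKM in PA and 80.8, 82.2 and 72.1 RPKM in control. Control 3 lay between PA values, so the groups overlapped, and the log2 fold change was -0.13 ± 0.10 (95% interval -0.36 to 0.10, limma adjusted p = 0.431). DNAJB6 had 236, 197 and 205 RPKM in PA against 211, 201 and 202 RPKM in control, with PA 1 high and PA 2 low, a log2 fold change of 0.051 ± 0.10 (95% interval -0.19 to 0.29, limma adjusted p = 0.787). Its sign depended on scaling: it was -0.055 with values rescaled to a common sum and -0.070 with quantile normalization. DNAJB4 had 31.6, 36.8 and 42.0 RPKM in PA and 41.3, 40.5 and 46.4 RPKM in control, and DNAJB5 was at 6.43 to 7.50 RPKM in PA and 6.80 to 8.52 RPKM in control. DNAJB2, a ubiquitin-binding member, had 18.5, 21.7 and 13.8 RPKM in PA and 23.5, 24.2 and 19.1 RPKM in control, with PA 3 the lowest library.

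The class B member with the lowest fold change was DNAJB12, an ER membrane protein whose J domain faces the cytosol and which takes part in ER-associated degradation. It had 17.8, 18.5 and 15.3 RPKM in PA and 23.6, 24.3 and 21.3 RPKM in control, so all PA libraries were lower. The log2 fold change was -0.40 ± 0.12 with a limma adjusted p of 0.0810 (0.0219 to 0.253 over the alternatives). Its paralogue DNAJB14, in the same membrane, overlapped between the groups, with 21.6 to 27.5 RPKM in PA and 23.4 to 32.8 RPKM in control. DNAJB9, or ERdj4, a lumenal cochaperone of the HSP70 protein BiP and a target of the unfolded protein response, had the highest class B value. It had 13.7, 10.7 and 11.6 RPKM in PA and 10.8, 10.3 and 9.96 RPKM in control, overlapping through PA 2 and control 1, a log2 fold change of 0.19 ± 0.12 (limma adjusted p = 0.358). DNAJB11, or ERdj3, the abundant lumenal partner of BiP, was at 53.1 ± 3.57 RPKM in PA and 51.9 ± 1.20 RPKM in control, a log2 fold change of 0.029 with a 95% interval of -0.20 to 0.26.

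Class C, with 24 of the 37 tested genes, held both the highest and the lowest fold changes of the family, and both belonged to mitochondrial proteins. DNAJC19, a J domain subunit of the motor that pulls proteins through the inner membrane, had 40.3, 36.2 and 47.7 RPKM in PA 1, 2 and 3, against 29.8, 29.7 and 26.1 RPKM in control 1, 2 and 3. All PA libraries were higher than all controls, PA 3 most of all, with a log2 fold change of 0.52 ± 0.13 (95% interval 0.22 to 0.81) and a limma adjusted p of 0.0596. It passed under 5 alternatives: with a filter at 5 RPKM (adjusted p = 0.0454, where 7.41% of all genes passed), with quantile normalization (0.0473, 6.04%), with protein-coding genes alone (0.0347, 9.73%), and with a trend on length and GC content taken out, for both sets of transcript models (0.0203 and 0.0264). Its highest adjusted p over the alternatives was 0.173. DNAJC19 has the pseudogene copy DNAJC19P5, which was at 0.94, 7.99 and 1.96 RPKM in PA and at 5.34, 2.19 and 1.92 RPKM in control; the sources used here do not say how reads common to the gene and its copy were assigned.

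DNAJC11, a protein of the outer mitochondrial membrane that associates with the cristae-organizing complex, had 33.2, 28.3 and 21.0 RPKM in PA against 40.3, 35.3 and 37.9 RPKM in control. All PA libraries were lower, PA 3 most of all. The log2 fold change was -0.47 ± 0.16 with a limma adjusted p of 0.129, and -0.29 without PA 3. The other class C genes on the list of mitochondrial members used here were low. DNAJC15, of the inner membrane, was at 1.49 ± 0.165 RPKM in PA and 1.65 ± 0.200 RPKM in control. DNAJC30, linked to the ATP synthase, was at 4.43 ± 0.839 RPKM in PA and 4.39 ± 0.791 RPKM in control. With DNAJA3 the mitochondrial list of 5 genes had 2 positive and 3 negative values and a median of -0.087.

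Among the class C members of the ER, DNAJC10, or ERdj5, a disulfide reductase, did not separate, with 48.4 to 56.2 RPKM in PA and 43.9 to 61.4 RPKM in control. DNAJC1, or ERdj1, had 13.5, 15.1 and 19.1 RPKM in PA and 13.0, 13.4 and 13.5 RPKM in control, with PA 3 high. DNAJC18 was at 11.5, 9.90 and 13.6 RPKM in PA and at 8.37, 8.78 and 10.04 RPKM in control, a log2 fold change of 0.32 ± 0.14 (limma adjusted p = 0.192). DNAJC16 was at 4.67, 5.55 and 2.74 RPKM in PA and at 5.21, 5.03 and 6.37 RPKM in control, with PA 3 far below the rest. Over the 8 members of classes B and C on the ER list, 5 values were positive and 3 negative, with a median of 0.019. The compartment lists were made for description and do not hold every member. DNAJC4, DNAJC14 and DNAJC25 are among those on none of them. The 9 cytosolic members had 2 positive and 7 negative values and a median of -0.20; they are DNAJA1, DNAJA2, DNAJA4, DNAJB1, DNAJB2, DNAJB4, DNAJB5, DNAJB6 and DNAJC7. DNAJC7, which hands clients between HSP70 and HSP90, had 55.6, 73.8 and 76.8 RPKM in PA and 76.3, 85.6 and 72.9 RPKM in control.

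The listed members that act in the nucleus or on ribosomes had 2 positive and 3 negative values (median -0.0081). DNAJC2, the J domain part of the ribosome-associated complex, had 22.4, 21.0 and 33.0 RPKM in PA and 32.6, 36.0 and 33.0 RPKM in control. In RPKM as deposited, PA 1 and PA 2 lay well below the controls and PA 3 stood at their level. The log2 fold change of DNAJC2 was -0.42 ± 0.17 with a limma adjusted p of 0.164 in all libraries. Without PA 3 it was -0.62 (limma adjusted p = 0.0358). With values rescaled to a common sum it was -0.53 (limma adjusted p = 0.0785). DNAJC8 had 105, 116 and 145 RPKM in PA and 116, 125 and 124 RPKM in control, so the PA libraries enclosed all controls (log2 fold change -0.0081, 95% interval -0.32 to 0.30, limma adjusted p = 0.976). DNAJC9, a histone chaperone, was at 29.5 ± 3.89 RPKM in PA and 31.9 ± 0.746 RPKM in control, DNAJC17, a splicing factor, at 42.7 ± 2.96 RPKM in PA and 36.6 ± 8.96 RPKM in control, and DNAJC21, needed for maturation of the large ribosomal subunit, at 63.0 ± 6.97 RPKM in PA and 58.2 ± 7.68 RPKM in control.

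Of the vesicle members, DNAJC13, an endosomal protein also called RME-8, had 14.1, 14.0 and 11.4 RPKM in PA and 15.7, 14.5 and 18.7 RPKM in control, lower in every PA library (log2 fold change -0.29, limma adjusted p = 0.222). Its transcript is long, and the value was -0.071 once the trend on length and GC content was taken out. DNAJC5, the cysteine string protein, was at 51.7 ± 8.51 RPKM in PA and 54.7 ± 4.22 RPKM in control, and DNAJC6, or auxilin, which uncoats clathrin vesicles, at 9.59 ± 1.10 RPKM in PA and 10.1 ± 0.0557 RPKM in control. DNAJC24, an enzyme subunit of diphthamide synthesis, had 7.87, 8.68 and 8.77 RPKM in PA and 9.97, 9.52 and 12.5 RPKM in control, without overlap. DNAJC4 had 12.7, 14.6 and 12.5 RPKM in PA and 10.7, 10.9 and 6.69 RPKM in control, without overlap and with control 3 low; its log2 fold change was 0.48 ± 0.18 (limma adjusted p = 0.148), and 0.27 without control 3. DNAJC12, which binds aromatic amino acid hydroxylases, ranged more within PA (1.60, 2.79 and 3.82 RPKM) than between the group means of 2.74 RPKM in PA and 2.19 RPKM in control. DNAJC14, DNAJC22, DNAJC25 and DNAJC28 had log2 fold changes between -0.15 and 0.050 and overlapped between the groups.

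**Figure D3:**
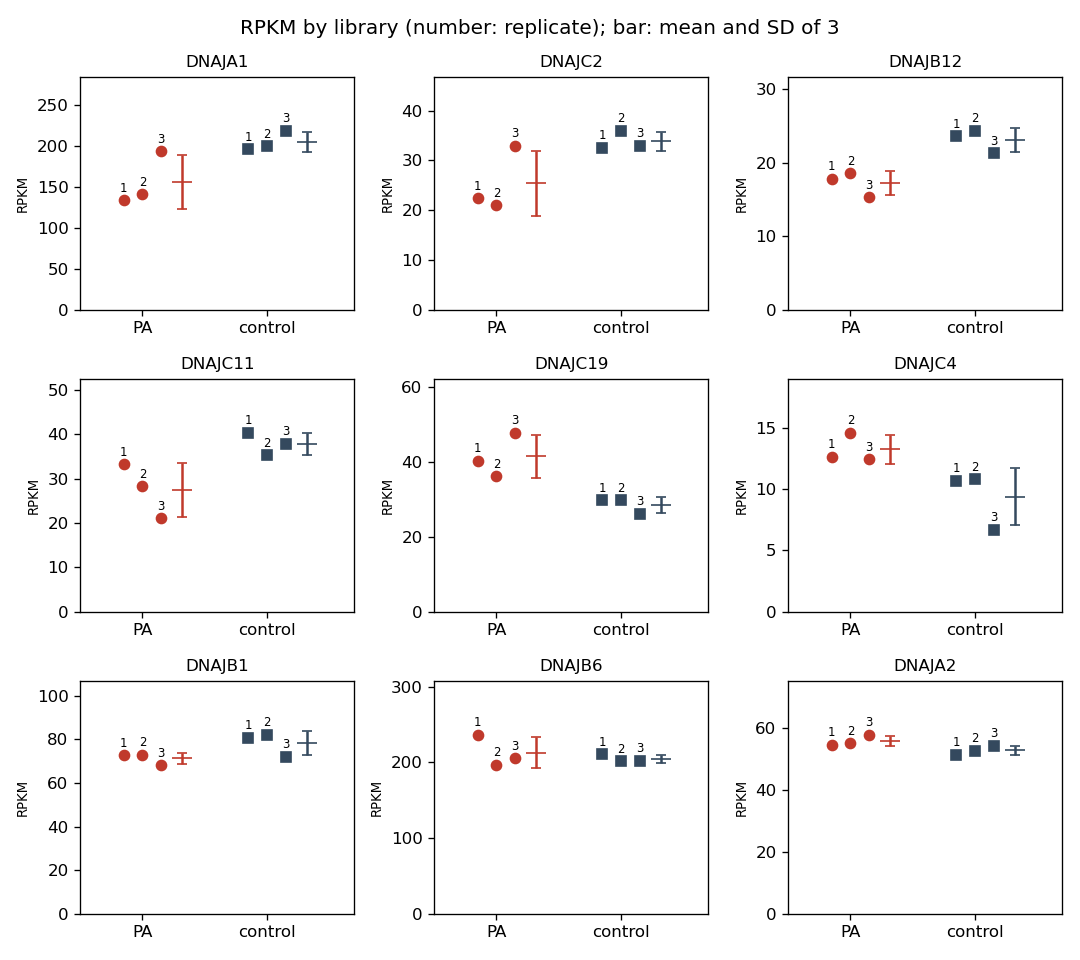
RPKM of 9 DNAJ genes in each PA library (red circles, left) and control library (dark squares, right), with replicate numbers and, beside them, the mean and SD of 3; each axis starts at 0. In DNAJA1 and DNAJC2 PA 3 stands near the controls, at 193 and 33.0 RPKM; all 3 PA libraries lie on one side of the controls in DNAJA1, DNAJB12, DNAJC11, DNAJC19, DNAJC4 and DNAJA2.

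Within the PA group, PA 3 was most often an outer library. It was the highest or lowest of the 3 PA libraries in 32 of 37 DNAJ genes (18 highest, 14 lowest), or 86.5%, as it was in 82.2% of all genes tested. Barring ties, every gene has a highest and a lowest library in each group, so such shares are high for any library. In DNAJ genes and all genes they were 67.6% and 70.6% for PA 1, and 45.9% and 45.5% for PA 2. Among the controls, control 3 had the largest shares, 75.7% and 77.2%. Distances were not compared. PA 3 was also the library with the highest RPKM sum, 881369. The difference of PA 3 from the mean of PA 1 and PA 2 on log2(RPKM + 1) ran from -0.70 in DNAJC16, -0.52 in DNAJC11 and -0.50 in DNAJB2 to 0.49 in DNAJA1, 0.58 in DNAJC2 and 0.62 in DNAJC12. Across the 37 genes it was lower at higher GC content of the transcript (Spearman's rho = -0.50), and across 13481 genes with annotation likewise (rho = -0.32). These are descriptions across genes that share the same 3 libraries, not replicates. The log2 fold change of PA over control did not follow GC content among the DNAJ genes (rho = -0.0092, n = 37), whereas over all genes the rho was 0.24.

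With a trend on transcript length and GC content removed from each library, 3 DNAJ genes passed, where 14.0% of all genes did: DNAJC19 was higher (0.54, limma adjusted p = 0.0203), and DNAJC11 (-0.50, 0.0431) and DNAJB12 (-0.36, 0.0322) were lower. With lengths from transcript models tagged basic, which leave out most partial models, the 3 that passed were again DNAJC19 (0.47), DNAJC11 (-0.45) and DNAJB12 (-0.36), where 17.0% of all genes passed. The share of 3 in 37 is below that background in both cases. DNAJC4, a short and GC-rich transcript, was then at 0.30, and at 0.24 with basic models, instead of 0.48. The lengths and GC contents come from GENCODE 29, on another assembly than the one the submitters name.

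**Figure D4:**
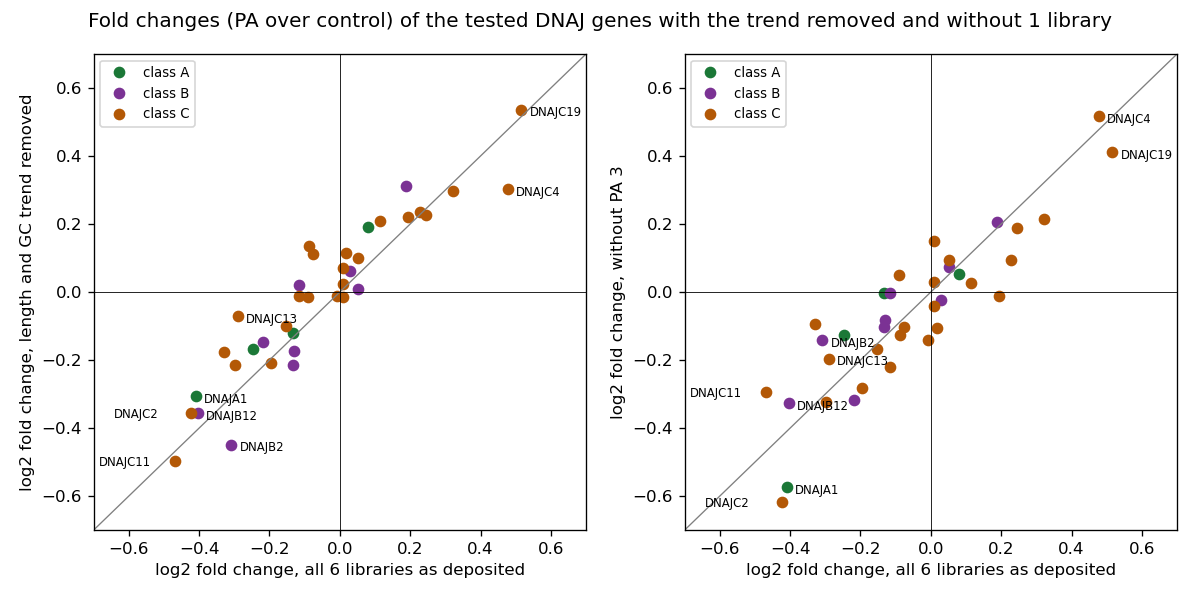
Log2 fold changes of PA over control for the 37 tested DNAJ genes: horizontal axes, all 6 libraries as deposited; vertical axes, with the trend on length and GC content taken out (left) and without PA 3 (right), with the diagonal in grey and classes by colour. Most points keep to the diagonal on the left, DNAJC13 moving to -0.071, and on the right DNAJA1 and DNAJC2 move down to -0.57 and -0.62 while DNAJC11 moves up to -0.29.

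Several of the HSP70 genes that DNAJ proteins work with passed the test, while no DNAJ gene did. A list of HSP70 proteins, nucleotide exchange factors, adaptors and other J domain proteins gave 31 tested rows, of which 1 was higher and 6 lower at a limma adjusted p under 0.05, with a median of -0.088 (background 2.84% higher and 1.97% lower). HSPA8, the constitutive cytosolic HSP70, had 1012, 1012 and 1155 RPKM in PA and 1499, 1537 and 1608 RPKM in control, without overlap (log2 fold change -0.55 ± 0.10, limma adjusted p = 0.0322). The stress-induced HSP70 genes HSPA1B (-1.21), HSPA1A (-1.01) and HSPA6 (-0.72), and HSPH1 (-0.88) and HSPA4L (-0.66), exchange factors of the HSP110 family, fell as well. HSPA1A and HSPA1B are near-identical copies whose separate values are uncertain. HSPA6 was low, at 1.55 ± 0.293 RPKM in PA and 3.21 ± 0.335 RPKM in control. At that level, 48.4% of control, adding 1 to the RPKM shrinks its log2 fold change. SIL1, the exchange factor of BiP, rose, with 24.0, 26.8 and 27.6 RPKM in PA and 13.4, 14.9 and 12.8 RPKM in control (log2 fold change 0.89 ± 0.11, limma adjusted p = 0.0131). BiP itself, HSPA5, was at 215 ± 33.5 RPKM in PA and 169.8 ± 3.85 RPKM in control and did not pass (limma adjusted p = 0.152). Without PA 2, or without control 1, 0 of these 7 calls were made, where 0.163% and 0.106% of all genes passed. The count of lower partners was 3 without PA 1, 2 without control 2, 1 without control 3 and 1 without the filter on low values. A call in one gene and none in another does not show that they differ.

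Ratios of cochaperones to HSPA8 within a library are unaffected by a single scaling factor per library, though not by quantile normalization or the removal of a trend. They were chosen after the values had been seen and were not tested, and they restate the levels of HSPA8 and of each DNAJ gene. DNAJA2 stood at 5.40%, 5.43% and 5.0003% of the HSPA8 RPKM in PA 1, 2 and 3, against 3.42%, 3.43% and 3.37% in the controls. DNAJB6 stood at 23.4%, 19.5% and 17.8% in PA and 14.1%, 13.1% and 12.6% in control, and DNAJB1 at 7.18%, 7.21% and 5.91% in PA and 5.39%, 5.34% and 4.48% in control. In these pairs every PA library lay above every control, while HSPA8 itself was lower in every PA library. The RPKM of DNAJB6 and of DNAJB1 overlapped between the groups. How many of all genes tested separate likewise over HSPA8 was not counted, so the ratios are not shown to be particular to DNAJ genes. The ratio of DNAJA1 overlapped, at 13.2%, 13.9% and 16.7% in PA and 13.1%, 13.0% and 13.6% in control.

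**Figure D5:**
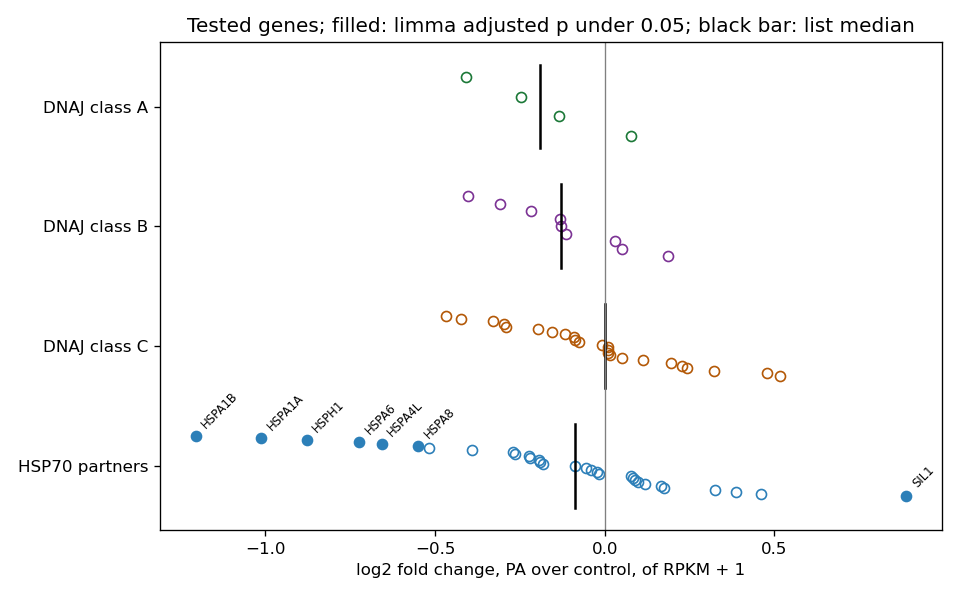
Log2 fold changes of PA over control on log2(RPKM + 1) for the tested DNAJ genes of each class and for 31 rows of the HSP70 partner list, spread vertically for sight; filled points have a limma adjusted p under 0.05 and black bars are list medians. The filled points, 6 to the left and SIL1 to the right, all belong to the partner list, whose lowest value is -1.21 (HSPA1B), while the DNAJ genes stay between -0.47 and 0.52.

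Exons of 14 of the 37 tested DNAJ genes overlap another listed gene in GENCODE 29, and for 12 that gene averaged at least 1 RPKM. Since the sources used here do not say whether strand was used, the reads of both genes of a pair could be mixed. On the same strand, DNAJC4 overlaps NUDT22, at 34.4 ± 3.57 RPKM in PA and 28.0 ± 4.65 RPKM in control (log2 fold change 0.29, limma adjusted p = 0.237), DNAJC9 overlaps MRPS16, and DNAJB11 overlaps AC068631.2. On opposite strands, DNAJB1 overlaps TECR (log2 fold change 0.080), DNAJC11 overlaps THAP3 (0.040) and DNAJC2 overlaps PMPCB (-0.087), none of which passed in limma. DNAJA1 and DNAJB12 overlap no listed gene, and the partner of DNAJC19, SOX2-OT, averaged 0.0133 RPKM in control and was listed at 0 in PA.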

How the data were processed

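RNA sequencing of AC16 cells gave 6 libraries, 3 PA and 3 control, grouped by their titles. Per the labels, total RNA was made into messenger RNA libraries. The authors deposited RPKM values, written to 2 decimals. Per the submitters' processing notes, which give no role or version, the tools included HISAT2, StringTie, RSEM, fastp and FastQC, and the genome build was hg19. Read depth, strand use and the gene models counted on are not stated.

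On log2(RPKM + 1), limma 3.58.1 (R 4.3.3; variance trend, two-sided, no covariates) was fitted to all genes averaging 1 RPKM or more, with Benjamini-Hochberg adjustment over all of them and a threshold of 0.05. No count model was used. With 3 libraries a group the smallest exact permutation p is 0.1, so no such test was run. Members, gene lists, alternatives and the naming rule were chosen with earlier results of these data known. The rule gave values in every library for members past the threshold and for the most abundant, highest and lowest member of each class; further members and, from the partner list, HSPA8 and HSPA5 were added after their values were seen. Lengths and GC contents are medians over a gene's protein-coding transcripts in GENCODE 29, which matched all 42 members by identifier without version, and the trend was fitted with splines of 4 degrees of freedom. Promoter windows are RefSeq's on GRCh38.p14. No 2 libraries shared more than 0.840% of tested values.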

Additional observations from a re-analysis of the deposited data

How the results depend on the processing

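The direction and side of the threshold were recomputed under 17 alternatives: other pseudocounts, filters and scalings, no variance trend, a replicate block, a length and GC trend removed, protein-coding genes alone and each library left out; the basic transcript models were added after the data were seen. Of 623 recomputed values of single DNAJ genes, 37 changed sign and 11 passed the threshold that they had missed. The count of DNAJ genes past the threshold, 0 higher and 0 lower, was 1 higher with a filter at a mean RPKM of 5, with quantile normalization, with protein-coding genes alone and with the length and GC trend removed (both transcript sets), and 2 lower with that trend removed (both sets); leaving out single libraries gave 0 to 2 lower and 0 higher. The partner count of 1 higher was 2 with quantile normalization, with protein-coding genes alone and with the trend removed, and 3 with basic models; its 6 lower became 1 without the filter and 3 with the replicate block; leaving out libraries gave 0 to 1 higher and 0 to 6 lower (0 without PA 2 or control 1). Of all genes, 681 passed: 72 without the filter, 98 with the replicate block, 1893 and 2292 with the trend removed, 1157 with protein-coding genes alone, and 15 to 569 with a library left out, fewest without control 1 (15) and PA 2 (23). The class A median was -0.29 and that of class C -0.097 with values rescaled to a common sum. Leaving out libraries gave -0.29 to -0.066 for class A and -0.041 to 0.0021 for class C. These medians are over the genes past the filter in each fit. Rescaling brought in DNAJC27, and over the genes tested in the main fit the rescaled class C median was -0.11. The causes of these moves were not tested.

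Sign changes occurred in genes whose log2 fold changes lay between -0.12 and 0.19. Rescaled to a common sum, DNAJA2 was -0.027, DNAJB11 -0.076, DNAJB6 -0.055, DNAJC10 -0.097, DNAJC14 -0.092, DNAJC22 -0.040, DNAJC25 -0.079 and DNAJC30 -0.076. With quantile normalization, DNAJB11 was -0.015, DNAJB6 -0.070 and DNAJC10 -0.032. With the length and GC trend removed, DNAJB14 was 0.021, DNAJC14 -0.014, DNAJC15 0.14 and DNAJC6 0.11, and with basic models DNAJB6 was -0.032, DNAJC15 0.14 and DNAJC6 0.10. Leaving out libraries gave -0.023 to 0.069 for DNAJB11, -0.23 to 0.0046 for DNAJB14, -0.026 to 0.11 for DNAJB6, -0.11 to 0.13 for DNAJC10, -0.012 to 0.43 for DNAJC12, -0.083 to 0.15 for DNAJC14, -0.11 to 0.082 for DNAJC25, -0.11 to 0.11 for DNAJC30, -0.18 to 0.050 for DNAJC5, -0.13 to 0.011 for DNAJC6 and -0.14 to 0.092 for DNAJC8.

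The labels number the replicates 1 to 3 in both groups, but same-numbered libraries deviated together in only 1 pair (correlations of 0.16, -0.014 and 0.037), so the numbers were not taken as pairs. With the replicate block 98 genes passed in all, of them 0 DNAJ genes, and the partner list had 1 higher and 3 lower. With unknown depth, the precision of genes near 1 RPKM, such as DNAJC15 and DNAJC28, cannot be stated beyond the spread of 3 libraries.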
